A study of Arabidopsis thaliana with 21 samples.

Results

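The strigolactone signalling mutant max2 was compared with the strigolactone synthesis mutants max1 and max3 in hypocotyls of Arabidopsis thaliana. The comparison used 9 of the 21 arrays of the series, chosen by genotype label: 3 arrays of max2, 3 of max1 and 3 of max3. The level in max2 was set against the mean of the max1 and max3 groups, each with equal weight. Intact wild-type plants (Col-0, 3 arrays) served to place both sides, and the other 9 arrays, from wild-type plants that were decapitated, decapitated and given the auxin indole-3-acetic acid (IAA, 3 mg per mL), or given the auxin transport inhibitor NPA (3 mg per mL), entered the estimate of the spread. Every group received lanolin, all plants were 2 weeks old, and hypocotyls were collected 24 h after treatment. The mutants and the intact wild type had no decapitation, IAA or NPA. Each array held RNA pooled from 120 to 150 hypocotyls, so a value is a mean over many plants. The labels name the mutated gene and no allele, and how many seed lines stand behind each genotype is not given in the sources used here.

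Strigolactones are carotenoid-derived hormones that restrain shoot branching, and plants that cannot make or sense them grow extra branches. MAX3 cleaves a carotenoid early in the pathway and MAX1, a cytochrome P450, acts on a later intermediate. MAX2 is an F-box protein that, together with a hormone receptor, marks repressor proteins for breakdown. It serves the strigolactone receptor D14 and also the related receptor KAI2, which responds to karrikins from smoke. A max2 plant therefore lacks both responses, while max1 and max3 plants lack the hormone. In stems the pathway is known for its ties to polar auxin transport and to the growth of vascular tissue.

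Values are deposited log2 levels from ATH1 arrays, with medians of 6.26 to 6.35 over the 9 mutant arrays, and about 36% of probe sets on any array of the series (35.7% to 36.4%) lay below 3.5, where values pile up near background. A difference of 1 is a 2-fold change, ± gives the SE from the fitted model (n = 3 arrays in each genotype), and "called" means an adjusted p below 0.05 in limma over all 22746 probe sets. The number of arrays limits the precision. The transcripts of the mutated genes themselves were not analysed here, so the mutations were not checked at the level of the targeted gene. Of the tissue markers measured, RCA, which activates Rubisco in green tissue, averaged 12.59 in max2 and the vascular peptide gene CLE41 10.55. The root hair genes EXPA7 and EXPA18 and the shoot apex genes CLV3 and UFO averaged 1.82 to 1.99, near background. In such pooled tissue, fewer cells of a type and less RNA per cell cannot be told apart.

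Few transcripts separated max2 from the synthesis mutants. Of 22746 probe sets 50 (0.220%) were called, 23 higher in max2 (0.101%) and 27 lower (0.119%), with differences between 0.34 and 4.70 in size, and 38 of the 50 differed by at least 1. At an unadjusted p below 0.05 there were 1563. The count depended on the arrays in the model: it was 7 with the 9 mutant arrays alone (4 residual degrees of freedom), 294 with array quality weights, and between 29 and 111 when 1 of the 9 arrays was left out. The pairwise comparisons called 64 probe sets between max2 and max1 (0.281%), 112 between max2 and max3 (0.492%) and 144 between max1 and max3 (0.633%). The order of these counts depended on the processing. With the 9 arrays alone these counts were 14, 3 and 24. With dim probe sets left out they were 70, 190 and 170, so that max2 and max3 had the highest count. Without max2 replicate 3 the count between max2 and max3 was 315.

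Each mutant in turn was also set against the mean of the other 2, a comparison added after the data were seen. It called 86 probe sets for max1 (0.378%) and 219 for max3 (0.963%), beside the 50 for max2. Without max2 replicate 3 the order of max1 and max2 turned, with 75 for max1 and 111 for max2. All 3 max2 arrays lay above or below all 6 synthesis mutant arrays at 314 probe sets (1.38%), against 324 (1.42%) for max1 and 770 (3.39%) for max3 in that role. Over the 14669 probe sets with a mean of at least 3.5, the root mean square difference between group means was 0.315 for max2 and max1, 0.371 for max1 and max3 and 0.379 for max2 and max3. Each mutant lay further from the intact wild type, at 0.511 for max2, 0.567 for max1 and 0.502 for max3. These distances share arrays and were not tested.

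**Figure D1:**
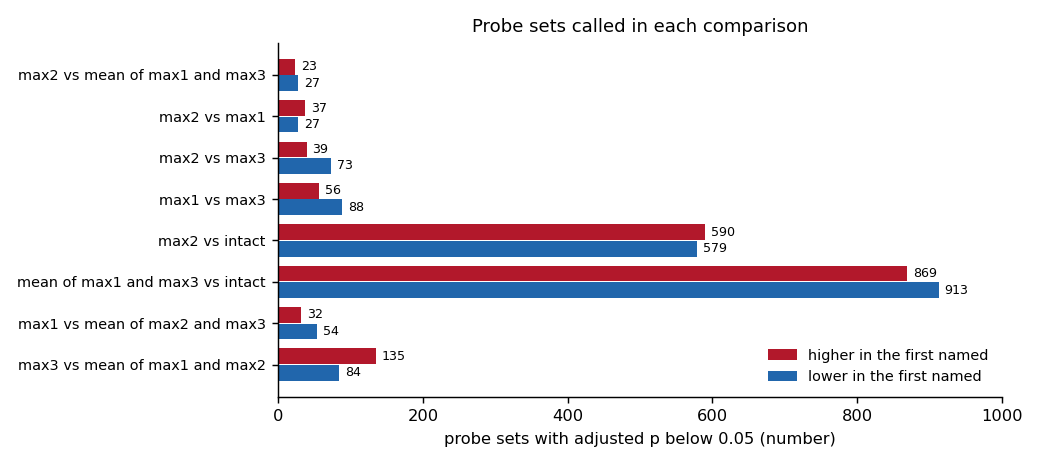
Number of probe sets (x axis) with an adjusted p below 0.05 in each comparison of mutants with each other and with the intact wild type, higher (red) or lower (blue) in the group named first. The bars for max2 against the mean of max1 and max3 reach 23 and 27, while max2 against intact reaches 590 and 579.

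Against the intact wild type, max2 had 1169 called probe sets (5.14%, 590 higher and 579 lower), and the mean of the synthesis mutants had 1782 (7.83%). The second count rests on 6 mutant arrays and the first on 3, so their sizes cannot be compared directly. Both share the intact arrays.

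How much of a difference could have been missed follows from the intervals. Among the 14669 probe sets with a mean of at least 3.5, the 95% interval of the max2 difference lay within 1 of 0 for 91.0%, and its median half-width was 0.30. For the remaining probe sets a 2-fold difference in some direction was inside the interval or was reached, so a missed call does not show that the genotypes had equal levels there.

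The 50 called probe sets fell into distinct kinds once the synthesis mutants were compared with each other. For 24 of them max1 and max3 themselves differed (adjusted p below 0.05), and max2 was called against only 1 of these mutants. The mutant it was called against is said here to stand apart: max1 for 18 and max3 for 6. A missed call against the other does not show equal levels. AT2G39400 averaged 6.35 in max2, 7.11 in max1 and 8.53 in max3, and max2 was also called below intact (-1.13, adjusted p = 0.027). For the other 26, max1 and max3 could not be told apart. Of these 26, 21 were lower in max2 and 5 were higher, and in 19 of them no max2 array overlapped a synthesis mutant array. None of the other 24 was free of overlap, which their grouping makes likely, since max2 was not called against 1 of the mutants there. Over all probe sets 1.38% were free of overlap, and being called itself favours that. Called against max1 and also against max3, in the same direction, were 9 probe sets, all of them among the 50 and 2 of them higher in max2. Both of these comparisons use the same max2 arrays.

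**Figure D2:**
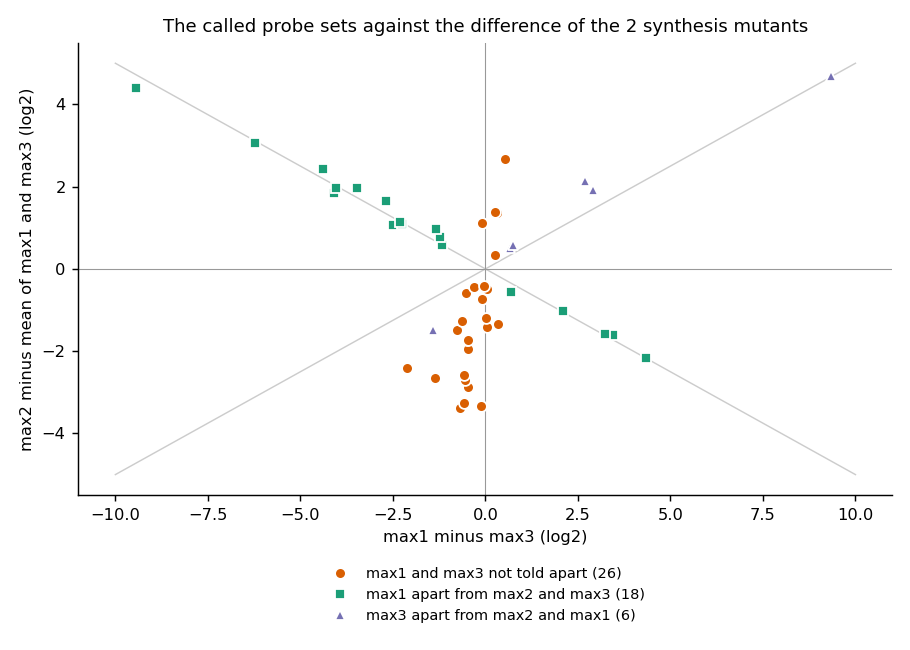
Each point is a called probe set, placed by the difference between max1 and max3 (x axis, log2) and the difference between max2 and their mean (y axis, log2). Green squares (18) and violet triangles (6) lie on or near the grey lines, on which max2 equals 1 of the synthesis mutants, with AT2G39400 and 266129_at further off. Most of the 26 orange circles lie near an x value of 0, with 263443_at at -2.12 and AT1G64380 at -1.37 the furthest from it, and 21 are below 0 on the y axis.

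Of the 26 probe sets for which max1 and max3 could not be told apart, 13 name a gene. The first to describe are those where the synthesis mutants were high and max2 resembled the wild type. AT5G63180 read 3.09, 2.90 and 3.45 in max2, and 2.93, 2.96 and 2.98 in the intact wild type. In max1 it read 5.58, 5.93 and 7.78, and in max3 6.47, 6.67 and 6.49. Every synthesis mutant array thus stood above every max2 array, and the wild type sat beside max2 near background. The difference of max2 from the synthesis mutants was -3.34 ± 0.40 (10.1-fold, adjusted p = 0.0018 in limma). The synthesis mutants differed from intact by 3.53 ± 0.40 (adjusted p = 0.00022), and max2 by 0.19 ± 0.47 (adjusted p = 0.92).

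AT3G16370 had the same order of genotypes. It read 5.10, 4.14 and 4.61 in max2 against 7.30, 6.75 and 7.69 in max1 and 8.38, 7.26 and 7.51 in max3. Intact plants gave 5.89, 5.03 and 4.64, close to max2. The groups of max2 and of the synthesis mutants did not overlap, and the difference was -2.87 ± 0.35 (7.32-fold, adjusted p = 0.0020). Against intact, the synthesis mutants were 2.3 ± 0.35 higher (adjusted p = 0.0018) and max2 was at -0.57 ± 0.41 (adjusted p = 0.63).

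The gene GH3.3 (AT2G23170) encodes an enzyme that joins auxin to amino acids and is a standard transcript of the auxin response. It read 3.91, 4.97 and 7.14 in max2 in replicates 1, 2 and 3, 6.32, 7.72 and 9.30 in max1, and 7.01, 8.11 and 9.83 in max3. Over all arrays the groups overlap, since the third max2 array exceeds the first max1 and max3 arrays. Within each replicate number max2 was the lowest of the 3 mutants, with differences of -2.75, -2.95 and -2.42 from the mean of the other 2. The intact wild type read 4.02, 4.77 and 5.81.

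For GH3.3 the difference of max2 from the synthesis mutants was -2.71 ± 0.47 (6.54-fold, adjusted p = 0.033). The synthesis mutants were 3.18 ± 0.47 above intact (adjusted p = 0.0013) and max2 was 0.47 ± 0.54 above it (adjusted p = 0.89). Without the replicate number in the model the GH3.3 difference was not called (adjusted p = 0.37). It was also not called against max1 alone (-2.44, adjusted p = 0.14) and was called against max3 alone (-2.98, adjusted p = 0.031). Its call was lost as well on leaving out any 1 of 7 of the 9 arrays, with adjusted p up to 0.24, and kept without max1 replicate 1 or max2 replicate 3.

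AT1G29670 and AT1G29660 are neighbours on chromosome 1 and moved alike between max2 and the synthesis mutants, so they may not count as independent cases. AT1G29670 read 4.07, 3.61 and 5.18 in max2, 7.0, 6.84 and 8.14 in max1 and 8.99, 7.35 and 7.72 in max3. Intact plants lay between, at 6.87, 6.15 and 5.47. The difference of max2 was -3.39 ± 0.42 (10.4-fold, adjusted p = 0.0020), the largest drop among the called probe sets. This gene was called on both sides of the wild type: max2 was -1.88 ± 0.48 from intact (adjusted p = 0.041) and the synthesis mutants 1.51 ± 0.42 (adjusted p = 0.044).

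In AT1G29660 the max2 arrays read 4.00, 5.13 and 6.41, below 8.37, 8.24 and 7.85 in max1 and 9.05, 8.49 and 8.63 in max3. The difference was -3.26 ± 0.52 (adjusted p = 0.019), and -2.57 with an adjusted p of 0.13 when max2 replicate 1 was left out. It was also lost without max2 replicate 2, max3 replicate 1 or max3 replicate 3, with adjusted p from 0.0548 to 0.16.

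A further kind was low in max2 while the synthesis mutants stayed near the wild type. PR-1-LIKE (AT2G19990), which is named for its likeness to a pathogenesis-related protein, read 6.89, 6.5 and 6.64 in max2. It read 8.37, 8.72 and 7.42 in max1, 8.06, 7.82 and 7.65 in max3, and 7.97, 7.42 and 7.96 in intact plants. No other array among these 12 was as low as the max2 arrays. The difference from the synthesis mutants was -1.33 ± 0.23 (2.51-fold, adjusted p = 0.032, and adjusted p = 0.082 without the replicate number in the model). The call was also lost on leaving out any 1 of 6 of the 9 arrays (max1 replicate 1, max2 replicate 1 or 2, or any max3 array), with adjusted p from 0.057 to 0.22. Max2 was -1.10 ± 0.26 from intact (adjusted p = 0.027) and the synthesis mutants 0.22 ± 0.23 (adjusted p = 0.53). PR-1-LIKE was called against max1 alone (-1.49, adjusted p = 0.029) and not against max3 alone (-1.16, adjusted p = 0.079).

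AT1G64380 was also lowest in max2, with a wider spread. By mean the intact wild type (4.95) lay near max1 (5.14) and below max3 (6.52). Max2 arrays read 3.59, 3.13 and 2.83, max1 arrays 5.72, 5.30 and 4.41, and max3 arrays 7.96, 5.88 and 5.71. The difference was -2.64 ± 0.45 (adjusted p = 0.030, and 0.24 without the replicate number). Neither side was called against the intact wild type, which read 5.24, 5.60 and 4.01. Leaving out any of 7 of the 9 mutant arrays ended the call. AT1G64380 was called against max3 alone (-3.33, adjusted p = 0.014) and not against max1 alone (-1.96, adjusted p = 0.32).

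AT5G05230 was low in max2 by a small amount, with 7.96, 7.54 and 7.80 against 8.02 to 8.56 in the synthesis mutants. The difference was -0.44 ± 0.07 (adjusted p = 0.019, and 0.20 without the replicate number in the model), and leaving out max2 replicate 1, max2 replicate 2 or max3 replicate 1 ended the call. AT5G05230 was called against max3 alone (-0.60, adjusted p = 0.0065) and not against max1 alone (-0.28, adjusted p = 0.41).

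In the last kind all 3 mutants were below the wild type and max2 was the lowest. AT2G19970 read 9.88, 9.67 and 9.69 in max2, 10.87, 11.25 and 10.73 in max1, 11.00, 10.76 and 11.02 in max3, and 11.58, 11.80 and 11.84 in intact plants. Its 4 groups form 3 separate steps, with max1 and max3 sharing the middle one. Max2 differed from the synthesis mutants by -1.19 ± 0.11 (2.28-fold, adjusted p = 0.00025), from max1 alone by -1.20 (adjusted p = 0.00051) and from max3 alone by -1.18 (adjusted p = 0.0018). The distance to intact was -1.99 ± 0.13 for max2 (adjusted p = 5.5e-06) and -0.80 ± 0.11 for the synthesis mutants (adjusted p = 0.0011). AT2G19970 lies close to PR-1-LIKE on chromosome 2.

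AT3G22550 had the same order of genotypes, with 7.31, 6.81 and 6.61 in max2, 7.93, 7.78 and 7.07 in max1, 8.09, 7.75 and 7.20 in max3, and 8.84, 8.73 and 8.21 in intact plants. The groups overlap, while among arrays of the same replicate number max2 was always the lowest. Max2 differed from the synthesis mutants by -0.73 ± 0.10 (adjusted p = 0.0037), and without the replicate number in the model the adjusted p was 0.98.

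Higher in max2, with max1 and max3 not told apart, were 5 probe sets. Among named genes AT3G19310 read 3.99, 3.74 and 3.35 in max2 and 2.48 to 2.76 in the 6 synthesis mutant arrays, with intact at 2.49, 2.46 and 2.5. The arrays did not overlap, the difference was 1.12 ± 0.09 (adjusted p = 6.2e-05), and the synthesis mutants and the wild type were near background. AT5G51310 was 1.35 ± 0.24 higher (adjusted p = 0.037), with max2 at 4.29, 4.16 and 3.11 and max1 reaching 3.48. It was not called against max1 alone (adjusted p = 0.17). Its call was lost without the replicate number (adjusted p = 0.075) and on leaving out any 1 of 7 of the 9 arrays (0.067 to 0.27), and kept without max1 replicate 1 or max2 replicate 3. The probe set 264430_at, whose gene is not named by the annotation used, had the largest increase of this kind. It read 7.03, 7.48 and 7.35 in max2, 5.20, 4.27 and 5.14 in max1, 3.72, 4.07 and 5.26 in max3, and 3.72, 4.30 and 4.60 in intact plants, a difference of 2.68 ± 0.27 (6.40-fold, adjusted p = 0.00031).

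**Figure D3:**
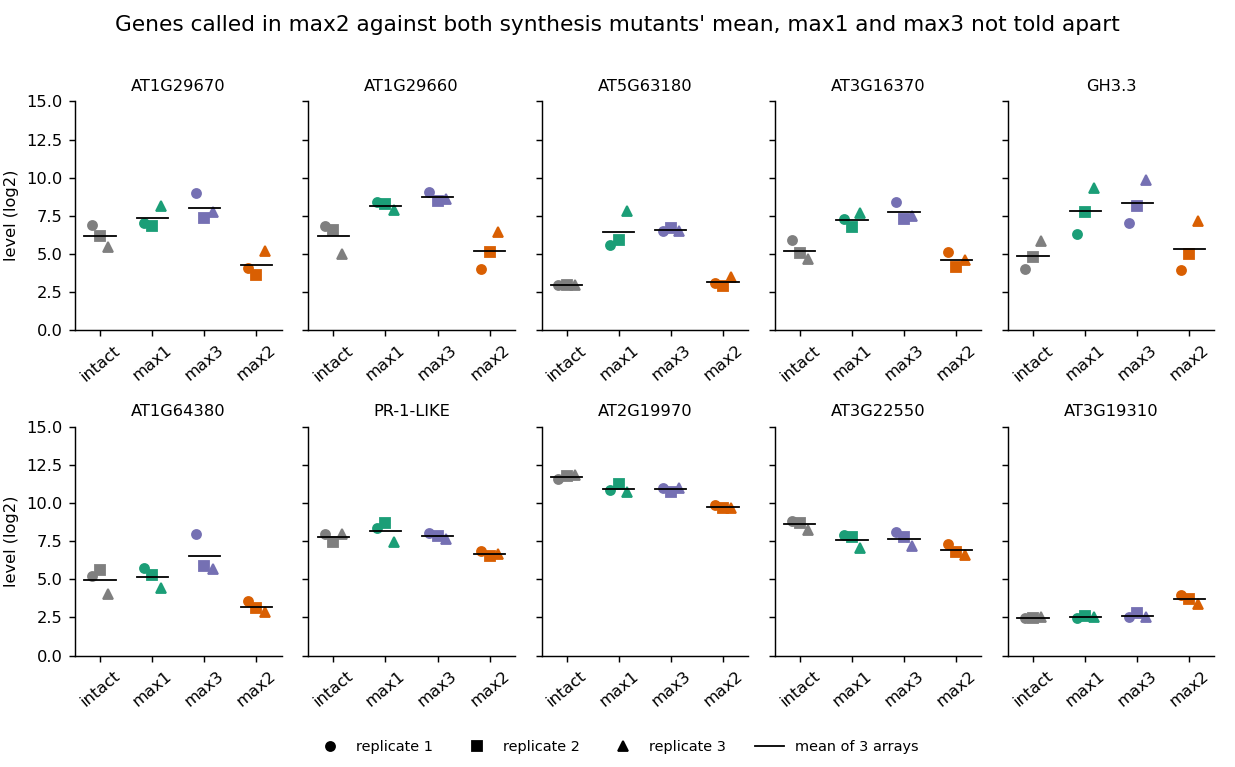
Level (y axis, deposited log2 scale) of 10 called genes for which max1 and max3 were not told apart, on each array of the intact wild type, max1, max3 and max2, with the replicate number as marker shape and a bar at the mean of 3 arrays. In AT5G63180 max2 sits with the wild type near 3 and both synthesis mutants sit above 5, while AT2G19970 steps down from intact over max1 and max3 to max2.

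Of the 10 genes in the plot of levels by genotype, GH3.3 kept its call when the model held the 9 mutant arrays alone (adjusted p = 0.0098), and the other 9 did not, with adjusted p from 0.068 to 0.42. The unnamed 264430_at lost its call there as well (adjusted p = 0.28 in limma). Besides GH3.3, the calls kept in that model were APA1, AT1G09910, AT1G11280, AT2G25450, AT3G07230 and the unnamed 266015_at. In each of those max1 or max3 stood apart. The arrays of GH3.3 overlap, so no call free of overlap was kept with the 9 arrays alone.

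Placed against the wild type, the 19 called probe sets without overlap divided as follows. In 7 of them max2 was called against intact and the synthesis mutants were not, in 6 the synthesis mutants were called and max2 was not, in 4 both were called and in 2 neither. A call on 1 side and none on the other does not by itself show a difference. For these 19 the difference between the sides is the call that chose them.

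The auxin response of these transcripts was measured on other arrays, those of decapitated plants with and without IAA, which the max2 comparison did not use except for the spread. IAA raised 1451 probe sets by at least 1 (6.38%, called) and lowered 1159 (5.10%). Of the 27 probe sets lower in max2, 8 (29.6%) were among those raised by IAA and 2 (7.41%) among those lowered. Among the 23 higher in max2, 2 (8.70%) were raised and 4 (17.4%) lowered.

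All 8 belonged to the probe sets for which max1 and max3 could not be told apart. GH3.3 rose with IAA by 10.38 ± 0.54 (adjusted p = 1.4e-08), from a mean of 4.23 in decapitated plants to 14.61. The unnamed probe set 245075_at rose by 4.26 ± 0.24, PR-1-LIKE by 3.2 ± 0.26 (adjusted p = 1.0e-06), AT3G16370 by 2.4 ± 0.41 (adjusted p = 0.00060) and AT2G19970 by 1.79 ± 0.13 (adjusted p = 4.3e-07). AT3G22550 went the other way and fell with IAA by 2.89 (adjusted p = 7.0e-10). AT5G63180 was at -1.10 ± 0.47 (adjusted p = 0.093) and AT1G29670 at 0.73 ± 0.48 (adjusted p = 0.26), and neither was called. AT5G63180 read 4.95, 4.52 and 3.47 in decapitated plants and 3.53, 3.15 and 2.97 with IAA. A missed call does not show that a transcript did not respond.

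The wider auxin-responsive sets lay close to 0. Over the 1451 probe sets raised by IAA the median difference of max2 from the synthesis mutants was 0.08, over the 1159 lowered by IAA it was -0.08, and over all probe sets 0.01. Of the first set 2 were called higher in max2 (0.138%) and 8 lower (0.551%). Of the second, 4 were called higher (0.345%) and 2 lower (0.173%). Over all probe sets the shares were 0.101% higher and 0.119% lower.

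In the remaining 24 called probe sets 1 synthesis mutant stood apart, and the genes below were chosen after their values were seen. AT2G25450 read 3.58, 3.6 and 4.08 in max1. In the other genotypes it was high, with 12.06, 12.86 and 13.74 in max2, 13.01, 13.38 and 13.21 in max3 and 12.22, 12.67 and 12.52 in intact plants. Max2 differed from max1 by 9.13 (adjusted p = 2.7e-10) and from max3 by -0.32 (adjusted p = 0.87), so that the difference of 4.41 ± 0.23 from their mean describes max1.

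AT1G11280 had the same form, at 2.52, 2.38 and 2.36 in max1 and 8.33 to 8.75 in max2. AT1G09910 read 4.28, 3.90 and 4.11 in max1 and 8.10, 7.66 and 8.16 in max2. APA1 (AT1G11910), an aspartic proteinase, read 11.48, 11.22 and 11.39 in max1 against 13.82, 13.45 and 13.48 in max2. In each of these the difference between max2 and max3 was not called, and the intact plants lay beside them.

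Some transcripts were on in max1 alone. AT5G24240 read 6.62, 6.70 and 5.79 there and 2.03 to 2.08 in max2, max3 and intact plants. QQS (AT3G30720), an orphan gene that influences the balance of starch and protein, read 5.40, 6.12 and 5.35 in max1 and 2.44, 2.41 and 2.42 in max2. SQN (AT2G15790), a cyclophilin, read 4.63, 3.90 and 4.85 in max1 and 2.39, 2.35 and 2.37 in max2. For all 3 of these genes the adjusted p of max1 against max3 was at most 0.00026.

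For max3 the clearest case was AT3G07230, with 1.87, 2.35 and 2.45 in max3, 11.32, 11.81 and 11.65 in max2, 11.83, 11.44 and 11.43 in max1 and 11.12, 11.48 and 10.89 in intact plants. It had the largest difference of the whole comparison, 4.70 ± 0.16 (adjusted p = 6.6e-09). AT4G25790 showed a different order, since max2 (6.05, 5.48 and 6.69) and max1 (5.19, 5.70 and 5.93) were raised over intact (2.21, 2.17 and 2.21), and max3 was not on 2 of its arrays (2.1, 3.73 and 2.21). Its difference of 1.93 ± 0.35 was just inside the threshold (adjusted p = 0.0496). The beta-glucosidase gene BGLU41 (AT5G54570) was likewise near background in max3 and intact, at 2.83 to 2.94, and read 3.99, 4.05 and 3.52 in max2.

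**Figure D4:**
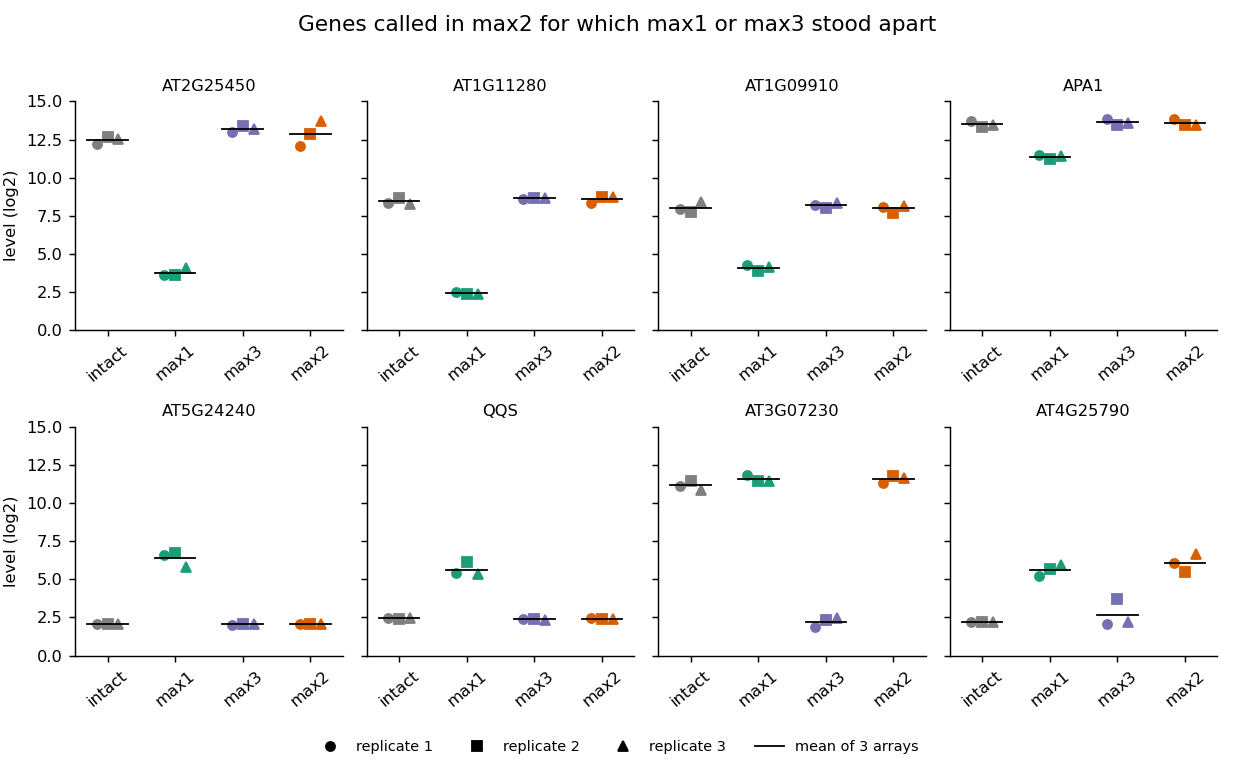
Level (y axis, deposited log2 scale) of 8 called genes on each array of the intact wild type, max1, max3 and max2, with the replicate number as marker shape and a bar at the mean of 3 arrays. Max1 stands apart in the first 6 and max3 in AT3G07230 and AT4G25790, while max2 lies with the remaining synthesis mutant.

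Gene order was examined with the protein-coding genes of the TAIR10.1 annotation. Of the 13 named genes with max1 apart, 6 lie on chromosome 1 and 5 on chromosome 2, where 26.3% and 15.4% of the named probe sets lie. MAX1 itself is on chromosome 2, and AT2G25450 is 77 and AT2G24960 132 protein-coding genes away from it, followed by AT2G21860 at 449, SQN at 1071 and AT2G14460 at 1179. MAX2 and MAX3 lie on chromosome 2 as well. With max3 apart, AT2G39400 is 365 genes from MAX2, 617 from MAX3 and 1407 from MAX1. AT2G30710 is 473 genes from MAX1, 1299 from MAX2 and 1551 from MAX3. With max1 and max3 not told apart, GH3.3, PR-1-LIKE and AT2G19970 are 309, 658 and 660 genes from MAX1 and 2081, 2430 and 2432 from MAX2. Of the 13 named genes for which max1 and max3 could not be told apart, 4 lie on chromosome 1, 3 each on chromosomes 2, 3 and 5 and none on chromosome 4. The part that position plays in the differences was not tested.

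Known pathway genes were then followed as lists. The annotation named 67 of the 351 genes in 28 lists, at least 1 gene in 24 of them, and none of the strigolactone and karrikin receptors, repressors or karrikin response genes, nor of the phosphate starvation and senescence lists. Of the 67 genes, 2 (2.99%) were called, both lower in max2, where 0.220% of all probe sets were called. These are GH3.3 in the auxin response list (1 of 9 measured genes, list median 0.02) and QQS in the nitrogen status list (1 of 3, median -1.58). QQS reflects max1 alone, and its own value is that list median. The lists were chosen with earlier results of these data known, so the 2 shares do not form a test. The median over the 67 genes was 0.01, as over all probe sets, and for 42 of them the 95% interval lay within 1 of 0. Of the 67, 16 averaged below 3.5, near background, where a narrow interval tells little, and among the other 51 the interval lay within 1 of 0 for 28. Of the 65 genes not called in limma, 8 had an unadjusted p below 0.05.

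In the strigolactone synthesis list 1 gene was measured, AT4G36470, with a difference of 0.30 (95% interval -0.19 to 0.79). GAT1_2.1, a class I glutamine amidotransferase gene that responds to nitrogen supply and has been tied to branching, is the measured member of the branching list. It read 2.05, 2.05 and 5.78 in max2, 2.26, 6.90 and 4.77 in max1, 5.54, 7.48 and 8.49 in max3, and 6.51, 8.66 and 8.03 in intact plants. Its difference of -2.61 had an interval of -4.35 to -0.88 and an adjusted p of 0.42, and the arrays of max2 and max1 overlap. Against intact, max2 was lower, at -4.44 ± 0.93 (adjusted p = 0.014) and the synthesis mutants were at -1.83 ± 0.81 (adjusted p = 0.20).

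Other hormone genes with the smallest p in their lists were WES1 and WAG2. WES1, the auxin-conjugating enzyme GH3.5, read 6.86, 7.03 and 5.04 in max2 and 6.64 to 8.33 in the synthesis mutants, a difference of -1.39 (interval -2.4 to -0.37, adjusted p = 0.50). WAG2, a kinase that acts on auxin efflux carriers, read 3.88, 4.83 and 5.63 in max2 and 4.43 to 6.43 in the synthesis mutants. Its difference was -0.89 (interval -1.48 to -0.30, adjusted p = 0.42), while both sides were called above intact, by 1.42 for max2 and 2.31 for the synthesis mutants. The auxin regulators IAA20, IAA29, IAA30, IAA18 and HAT2 had differences between -0.33 and 0.25.

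Among jasmonate genes ORA47, a transcription factor of the wound response, was at 1.49 (interval 0.40 to 2.57, adjusted p = 0.50), with max2 arrays from 6.34 to 9.85, and PDF1.2, a defensin, was at -0.09. The calcium sensor gene CML38 of the wound list was at -1.42 (interval -2.66 to -0.17, adjusted p = 0.64) and the zinc-finger gene STZ at -0.16. In the wall loosening list XTH16 was at 1.21 (interval 0.27 to 2.15, adjusted p = 0.56) and XTH33 at 0.21, and the list median over 8 genes was 0.00. The light signalling gene HYH was at 0.73, the clock gene GI at 0.49 and GRX480 of the defence list at -0.08, none of them called.

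In the cytokinin, gibberellin and abscisic acid lists no gene was called. ARR15, a cytokinin response regulator, differed by 0.01 (interval -0.58 to 0.59), although both max2 and the synthesis mutants were lower than intact, each with a difference of -1.5 (adjusted p = 0.014 and 0.0048). RR16 was at 0.10, the gibberellin receptor genes GID1B and GID1A at 0.28 and 0.09, and the dehydration genes COR15A and LTI30 at -0.50 (interval -1.78 to 0.78) and -0.49 (interval -2.05 to 1.08), intervals that hold 2-fold changes. Flavonoid genes gave 0.75 for AT4G14090 (adjusted p = 0.57) and -0.77 for DFR (adjusted p = 0.89), and glucosinolate genes -0.35 for AT2G31790 and -1.01 for BCAT4, with 0 of 5 called in each list. PDC2 of the low oxygen list was at -0.01.

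Vascular and growth genes followed. The peptide gene CLE41, which maintains the cambium, read 10.99, 10.35 and 10.32 in max2 and 10.32 to 10.76 in the synthesis mutants, a difference of -0.03 (interval -0.35 to 0.29). Both sides lay below intact, with differences of -1.01 for max2 (adjusted p = 0.0039) and -0.98 for the synthesis mutants (adjusted p = 0.0016). The xylan gene GUT2 was higher than intact on both sides, at 1.26 in max2 and 1.04 in the synthesis mutants, and so was the lignin gene HCT, at 0.74 and 0.52, all called. The xylan genes IRX15 and IRX15-L were not called against intact on either side. Between max2 and the synthesis mutants GUT2 differed by 0.22, IRX15 by 0.44 and HCT by 0.22 (interval 0.02 to 0.42, adjusted p = 0.67). The phloem gene OPS was at 0.26 and SWEET11 at -0.02, the mitosis genes PRL and AUR2 at 0.12 and -0.14, and the leaf genes RCA and LHCB4.2 at -0.38 and -0.23.

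**Figure D5:**
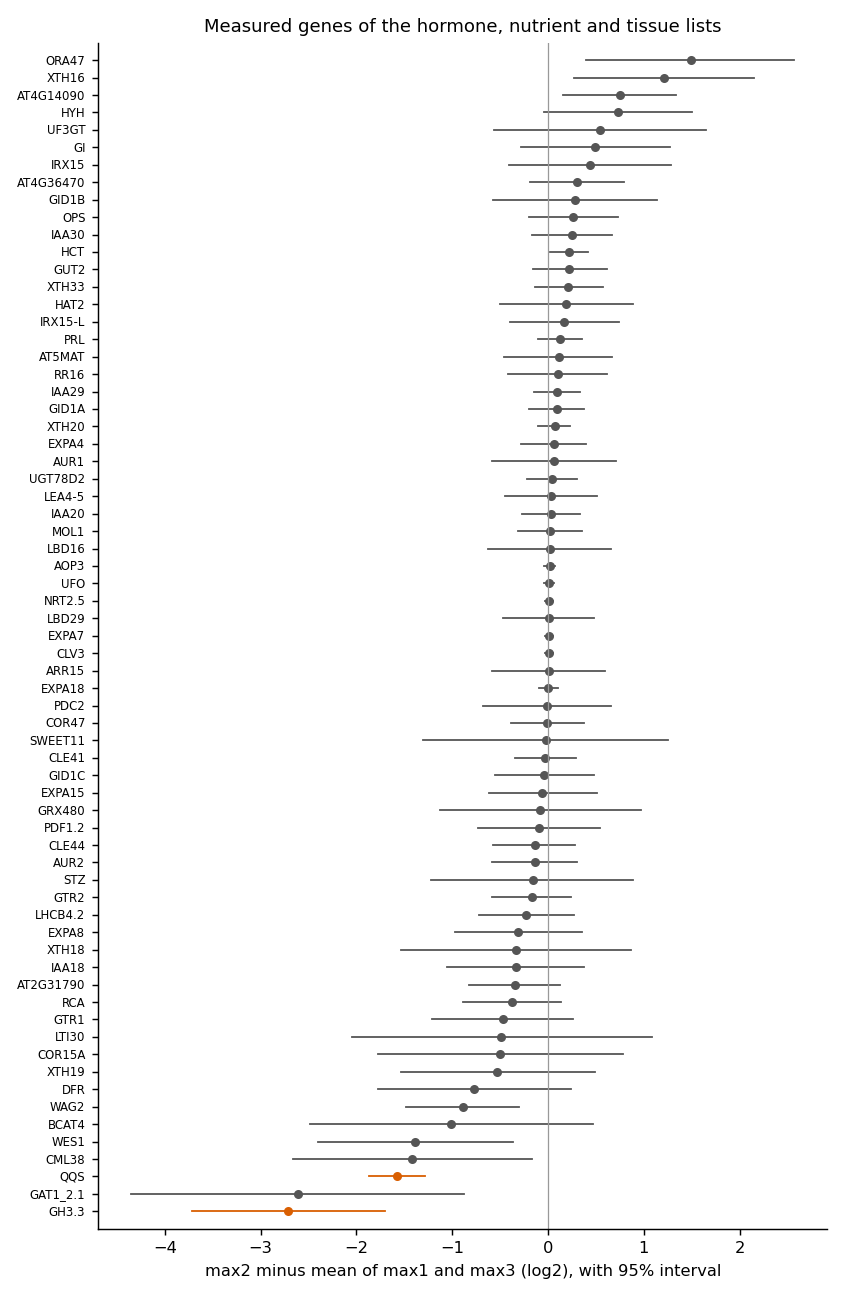
Difference of max2 from the mean of max1 and max3 (x axis, log2) with its 95% interval for the 67 measured genes of the pathway and tissue lists, sorted by value, with called genes in orange. GH3.3 at -2.71 and QQS at -1.58 are called, while GAT1_2.1 at -2.61 has an interval from -4.35 to -0.88 and is not.

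Families recognised by gene symbol were chosen after the data were seen. In 13 families with 281 probe sets 1 was called (0.356%, against 0.220% of all probe sets), BGLU41, which was higher. The median was 0.02 for 47 UDP-glycosyltransferases, 0.02 for 26 cytochrome P450s, 0.01 for 22 trichome birefringence-like genes, which acetylate wall polysaccharides, and 0.02 for 42 MADS-box genes. Plastid-encoded genes stood off by value. Of 51 such probe sets 49 (96.1%) were lower in max2 by value, against 36.9% of all probe sets, with a median of -0.34. In limma 0 were called (smallest adjusted p 0.37), and 15 (29.4%) had an unadjusted p below 0.05, against 6.87% of all probe sets. The shares over all probe sets include the dim ones, with values near background. The 51 plastid probe sets measure the same genome on the same arrays and may not count as independent cases. Their mean level in max2 was 9.10, 9.54 and 9.79, with differences of -0.85 and -0.41 from the synthesis mutants in replicates 1 and 2 and of 0.23 in replicate 3. In intact plants the mean level was 9.25, 9.37 and 9.19, in max1 9.78, 9.93 and 9.55 and in max3 10.12, 9.98 and 9.56. By value every synthesis mutant array thus lay above every intact array, and the max2 arrays lay on both sides of intact. These means were not tested. Without max2 replicate 1 the median was -0.14.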

How the data were processed

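Levels in 21 samples were measured on ATH1 arrays with 4 µg of RNA each, per the labels' protocols. The authors deposited log2 values. The submitters' processing notes list RMA, GCRMA and R 3.2.2, and which of them did what is not given in the sources used here. No further scaling was applied before the tests. Of 22810 probe sets 64 controls were left out. The probe table named 1 gene for 13513 of the 22746 tested, several for 503 and none for 8730, and the TAIR10.1 reference table, which also gave gene order, held 13436 of the 13513. Unnamed probe sets were tested and counted. Only 1579 had a symbol other than the locus code.

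A linear model of group means with the replicate number as a block was fitted to all 21 arrays in limma 3.58.1 (R 4.3.3). It left 12 residual degrees of freedom, to which moderation added 1.11. P-values were adjusted per comparison by the Benjamini-Hochberg method. Per the labels, treatments of a replicate were done simultaneously, so the number pairs samples. Deviations from the group means had a median correlation of 0.381 for array pairs sharing a number (0.454 for number 1, 0.131 for number 2, 0.446 for number 3) and -0.144 for other pairs. Among max1, max2 and max3 alone the median was 0.341, with 0.454, -0.0137 and 0.356 for the 3 numbers and a lowest pair of -0.0855, so number 2 showed no shared deviation there. Of the arrays 0 pairs were identical.

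Members, lists and rules were chosen with earlier results of these data known. Named genes were those called with 1 gene, no overlap of max2 with the synthesis mutants and a mean of at least 4: up to 15 each way with a symbol and 5 each way without, and per list up to 4 called members or the 2 with the smallest p. This gave PR-1-LIKE, AT1G29670, AT5G63180, AT1G29660, AT3G16370, AT1G64380 and the list genes. Other genes were named after their values were seen. Where several 1-gene probe sets measured a list gene, the brightest on average stood for it. Alternatives were no block, a random block, the groups compared alone, leaving out each array, subtraction of array medians, a second quantile normalization, leaving out dim probe sets (mean below 3.5), weights for array quality, a variance trend with intensity and robust moderation, a change of at least 1, probe sets naming 1 gene, and averaging the probe sets of each list gene.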

Additional observations from a re-analysis of the deposited data

Results flagged for a closer look

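The comparison of max2 with the mean of max1 and max3 averages the synthesis mutants. For 19 called or listed genes max1 and max3 were called as different from each other in limma, so the difference of max2 was not the same against each. Max1 was below max3, with a difference (max1 minus max3, log2) of -9.45 in AT2G25450, -6.24 in AT1G11280, -4.38 in AT2G14460, -4.09 in AT1G09910, -4.05 in AT1G04350, -2.68 in AT2G21860, -2.50 in AT1G08180, -2.26 in APA1, -1.42 in AT2G39400, -1.24 in AT2G24960 and -1.18 in AT1G06640. Max1 was above max3 by 9.34 in AT3G07230, 4.33 in AT5G24240, 3.24 in QQS, 2.92 in AT4G25790, 2.11 in SQN, 1.53 in AT4G14090, 0.75 in BGLU41 and 0.66 in AT2G30710. Of these genes AT4G14090 was the 1 not called in max2 against the mean. What lies behind these differences was not tested.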

How the results depend on the processing

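The 50 calls became 294 with array quality weights (whose estimation stopped before convergence), 31 with probe sets naming 1 gene, 7 with the 9 mutant arrays alone, 9 when required against each synthesis mutant and 19 when required not to overlap. They lay between 29 and 111 when an array was left out, lowest without max3 replicate 1 and highest without max2 replicate 3. Without the replicate block 39 were called, 32 of them the same. Called values kept their sign in every setting run, and 6 kept their call in all: APA1, AT1G09910, AT1G11280, AT2G25450, AT3G07230 and the unnamed 266015_at, in each of which max1 or max3 stood apart.

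Of the pairwise counts, max2 against max1 (64) became 521 with weights and 14 with the mutants alone, and ranged from 47 to 76 without an array. Max2 against max3 (112) became 682 with weights, 190 without dim probe sets (where max1 against max3 gave 170), 41 without the block, 72 with a random block, 48 with probe sets naming 1 gene, 61 with a change of at least 1 and 3 with the mutants alone, and ranged from 23 without max2 replicate 2 to 315 without max2 replicate 3. Max1 against max3 (144) became 2810 with weights, 82 without the block, 78 with probe sets naming 1 gene, 81 with a change of at least 1 and 24 with the mutants alone, and ranged from 90 to 177. Against intact, max2 (1169) became 2115, 710, 520 and 554 with weights, without the block, with 1-gene probe sets and with a change of at least 1, and ranged from 698 to 951, lowest without intact replicate 2. The synthesis mutants (1782) became 3507, 1011, 864 and 577 under the same settings and 1129 with the mutants and intact alone, and ranged from 899 without intact replicate 2 to 1679. Max1 against the mean of the others (86) became 1803 with weights, 49 with a change of at least 1 and 23 with the mutants alone, and ranged from 67 to 102. Max3 in that role (219) became 1859 with weights, 88 without the block, 136 with a random block, 105 with 1-gene probe sets, 94 with a change of at least 1 and 13 with the mutants alone, and ranged from 55 without max3 replicate 1 to 430 without max2 replicate 3.

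The 2 called list genes became 4 with weights and 1 without dim probe sets, without the block, with a random block or with the mutants alone, and ranged from 1 to 3 without an array. GAT1_2.1 and ORA47 were called with weights (adjusted p 0.0464 and 0.028) and CML38 without max2 replicate 3 (0.0477). Why a count moved was not tested, beyond the fewer arrays or probe sets that a setting itself holds.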
